A study of Arabidopsis thaliana with 5 samples.

Results

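Double-stranded RNA (dsRNA) sequencing reads the base-paired part of a transcriptome, and the comparison here asks how its read counts per gene and per RNA class differ when ribosomal RNA (rRNA) is removed in 2 rounds instead of 1. The pair consists of the library called Col-0 dsRNA 2X Ribominus (2X) and the library called Col-0 dsRNA 1X Ribominus (1X), which are 2 of the 5 libraries of the series, and 1 library stands for each side. Members are annotated genes of chromosomes 1 to 5 on which reads with a single genomic location were summed, sense and antisense apart, for reads of 20–25 nt (short reads) and for reads of 26 nt or more (long reads). Of 37899 annotated genes, 10488 had at least 20 such reads of 1 length class and strand in both libraries together.

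Both libraries were made from unopened flower buds of Arabidopsis thaliana, wild-type Col-0 ecotype, without any treatment or transgene named in the labels. The total RNA of the dsRNA libraries was a pool from 3 biological replicates, so that neither side holds a replicate and no p-value is given. Side values come from another dsRNA library, that of the rdr6 mutant after 1 round (rdr6 1X), which is a mutant of the RNA-dependent RNA polymerase RDR6, and from a small RNA library of Col-0 buds (smRNA). The labelled tissue was checked on sense reads of 26 nt or more. The floral genes PI, AP3, AG and AP1 had 138, 66, 69 and 33 reads in 2X, against 195, 62, 38 and 24 reads in 1X. GRP17, a pollen coat protein gene of the tapetum, had 815 reads in 2X and 1402 reads in 1X, 2.01-fold lower per library, while the anther gene A9 (AT5G07230) had 16 in 2X and 10 in 1X, and the pollen gene VGD1 was 1.11-fold higher, short of the fold for a call. The root transporter gene IRT1 had 3 reads in 2X and 0 reads in 1X. Genes of green tissue were present too: at 20–25 nt, RBCS1A had 75 sense reads in 2X and 23 in 1X, and CAB1 had 79 in 2X and 25 in 1X. In RNA of whole buds, fewer cells of a type and less RNA per cell cannot be told apart.

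In rRNA depletion, biotinylated oligonucleotides complementary to conserved rRNA stretches pull rRNA out of total RNA on beads. A nuclease that cuts single-stranded RNA then leaves base-paired stretches, which come from hairpins and stems within 1 molecule (tRNA, snoRNA, folded mRNA) or from 2 complementary strands. Long hairpins and duplexes are substrates of Dicer-like enzymes, which cut them into small RNAs of set lengths such as microRNAs (miRNAs), trans-acting siRNAs (tasiRNAs) and the 24-nt siRNAs of repeats. Reads of 20–25 nt have the lengths of such products, and longer reads do not.

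The libraries differed in more than the number of depletion rounds. The 3′ adapter given in the labels has 24 bases for 2X and 21 bases for 1X and for all other libraries of the series, and adapter form and depletion round cannot be told apart in this pair. Reads mapped to the genome numbered 13773151 in 2X and 10294611 in 1X. Of these, 1531342 reads in 2X and 1310406 reads in 1X had a single location on a nuclear chromosome. These totals are the base of every value in reads per 1000000 (RPM) below. The adapter had not been found in 23.0% of the mapped reads of 2X and in 61.8% of those of 1X, with 35.6% in rdr6 1X. Reads of 24 nt made up 4.75% of the single-location nuclear reads in 2X and 23.4% in 1X, with 2.42% in rdr6 1X. Reads of 38 nt, the longest length, made up 13.9% in 2X and 27.8% in 1X. Reads under 20 nt, which enter neither length class, made up 33.8% in 2X and 14.5% in 1X. These shares cover unlike lengths, as the shortest reads had 15 nt in 2X and 17 nt in 1X and rdr6 1X. The RPM base of 2X thus holds lengths that 1X lacks, which lowers every RPM ratio of 2X over 1X by an amount not computed. Scaling by reads of the same length class leaves these reads out. The part of adapter form and read length in the differences below was not tested beyond the alternatives named beside them.

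The sequences that carry the comparison are mature miRNAs, tasiRNAs, snoRNA fragments and tRNA genes. They are reference sequences of the TAIR10.1 assembly and its RefSeq annotation, since the deposited files hold locations and counts but no read sequences. For mature miRNAs the capitals mark the seed, bases 2 to 8, which guides target pairing. The lines from miR391-5p to miR173-5p show miRNAs that were lower in 2X, chosen for the size of the drop, for abundance or, for miR173-5p, for its role at TAS loci, and the lines from miR163 to miR319a show miRNAs that were higher in 2X.
miR391-5p: uUCGCAGGagagauagcgcca
miR156h: uGACAGAAgaaagagagcac
miR156d-5p: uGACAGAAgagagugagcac
miR160a-3p: gCGUAUGAggagccaugcaua
miR161.1: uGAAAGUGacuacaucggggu
miR158a-3p: uCCCAAAUguagacaaagca
miR173-5p: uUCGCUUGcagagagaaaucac
miR163: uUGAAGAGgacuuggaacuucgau
miR159a: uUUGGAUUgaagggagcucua
miR159b-3p: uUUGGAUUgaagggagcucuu
miR319a: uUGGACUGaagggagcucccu

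The lower group lies at chr5:24293160-24293180 (miR391-5p, plus strand), chr5:22597087-22597106 (miR156h, minus), chr5:3456713-3456732 (miR156d-5p, minus), chr2:16340342-16340362 (miR160a-3p, plus), chr1:17825731-17825751 (miR161.1, plus), chr3:3366349-3366368 (miR158a-3p, minus) and chr3:8236161-8236182 (miR173-5p, plus). The higher group lies at chr1:24884359-24884382 (miR163, plus), chr1:27713234-27713254 (miR159a, minus), chr1:6220813-6220833 (miR159b-3p, plus) and chr4:12353109-12353129 (miR319a, plus). miR156h and miR156d-5p share the seed GACAGAA with miR157d, and miR159a and miR159b-3p share UUGGAUU.

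Ribosomal RNA, the target of the depletion, is encoded in repeated genes, and reads with a single location cover little of it. In short reads, annotated rRNA genes had 1177 single-location reads in 2X (769 RPM) and 203 in 1X (155 RPM), a ratio of 4.96 (95% counting interval 4.27–5.79). As long reads they had 1161 reads in 2X (758 RPM) and 389 in 1X (297 RPM), a ratio of 2.55 (2.27–2.87). Nearly all of these reads lay on the 18S rRNA gene AT3G41768 (chr3:14197677-14199484, plus strand). The picture was different when each read was divided over all of its nuclear locations. Counted so, rRNA genes held 19.7% of the nuclear reads in 2X and 43.5% in 1X at 26 nt or more, which is 2.20-fold lower in 2X. As short reads they held 9.95% in 2X and 2.55% in 1X, which is 3.90-fold higher in 2X. The lower share of long reads was that of the 164-base genes AT3G41979, annotated as 5.8S rRNA, and AT2G01020, annotated as 5S rRNA. Their shares were nearly equal in each library, as reads that match both are divided between them, and each held 7.63% in 2X and 20.3% in 1X, whereas the 18S genes AT2G01010 and AT3G41768 held 2.24% and 2.25% in 2X against 1.48% and 1.49% in 1X, 1.51-fold higher in 2X. For short reads all 4 genes were higher, the 18S genes 8.33-fold and 8.29-fold and the 164-base genes 2.96-fold. No gene is annotated as 25S rRNA here, so these shares hold no reads assigned to it.

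A pair of unnamed genes of the other non-coding RNA class follows AT3G41768 on the same strand. The rRNA shares above leave them out, and whether their reads stem from 25S or other rRNA was not examined. AT3G06355 (chr3:14199575-14200076) had 493 reads of 26 nt or more in 2X and 27 in 1X, with 93 in rdr6 1X. Its log2 ratio was 3.97 with single-location reads and 0.71 with reads divided over locations. AT3G06365 (chr3:14200215-14204208) had 5031 reads of 20–25 nt in 2X and 1292 in 1X, a log2 ratio of 1.74, and 8753 reads in 2X and 5403 in 1X at 26 nt or more, a log2 ratio of 0.47. With reads divided over locations it held 3.33% in 2X and 0.943% in 1X of the nuclear reads as short reads, and 4.69% in 2X and 4.82% in 1X as long reads, a log2 ratio of −0.04.

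The length classes moved differently. A gene is called higher or lower here when its RPM differed at least 2-fold and it had at least 20 reads in both libraries together, with 3 counts in place of a library at 0. Among short sense reads, 78.5% of 6166 genes (4838) were higher in 2X and 14.9% (920) were lower. In antisense the direction was the opposite, with 2.16% of 787 genes (17) higher in 2X and 84.1% (662) lower. Among long sense reads, 9.76% of 9244 genes (902) were higher in 2X and 4.25% (393) were lower. Only 41 genes had enough antisense reads of 26 nt or more, of which 19.5% (8) were higher in 2X and 46.3% (19) were lower. The median log2 ratio over all sense genes was 2.17 at 20–25 nt and 0.23 at 26 nt or more. The all-gene medians and the splits depend on the scaling. The median at 20–25 nt was 1.97 with scaling by all mapped reads, 2.66 by reads of the same length class and −0.14 by the median ratio of protein-coding genes, and that at 26 nt or more was 0.04, 0.48 and −0.01 in the same order. Of the called sense genes at 26 nt or more, 69.7% were higher in 2X, against 47.9% with scaling by all mapped reads, 85.6% with scaling by reads of the same length class and 42.9% with scaling by the median ratio of protein-coding genes. For short reads the share was 84.0%, against 30.8% with the protein-coding median. Directions below are relative to single-location nuclear reads.

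RNA classes split at 20–25 nt. Reads of miRNA genes were lower in 2X, with 1271 RPM in 2X and 10166 RPM in 1X, and reads outside annotated genes were 5.09-fold lower, with 48956 RPM in 2X and 249244 RPM in 1X. Pseudogenes, which in this annotation include many transposable elements, were 3.83-fold lower in sense, with 6613 RPM in 2X and 25320 RPM in 1X. tRNA genes were 9.23-fold higher in 2X (8.70–9.79), with 8606 RPM in 2X and 933 RPM in 1X. Protein-coding genes in sense were 2.76-fold higher (2.74–2.78), with 198941 RPM in 2X and 72196 RPM in 1X. snRNA genes were 4.26-fold higher and snoRNA genes 1.31-fold higher. The log2 ratios of protein-coding, snRNA and snoRNA genes (1.46, 2.09 and 0.39) lie below 2.31, the median over protein-coding genes, so these classes turn to lower in 2X where that median is set to 0. In long reads, snoRNA genes were 4.59-fold lower in 2X, with 28221 RPM in 2X and 129451 RPM in 1X, whereas tRNA genes were 4.22-fold higher (4.08–4.37), with 13269 RPM in 2X and 3143 RPM in 1X. The tRNA sums rest largely on the gene AT1G01270. It held 8908 of 13179 short tRNA reads in 2X and 59 of 1222 in 1X. Of long tRNA reads it held 13315 of 20320 in 2X and 982 of 4119 in 1X. Protein-coding sense reads differed 1.16-fold, with 273752 RPM in 2X and 236737 RPM in 1X.

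**Figure D1:**
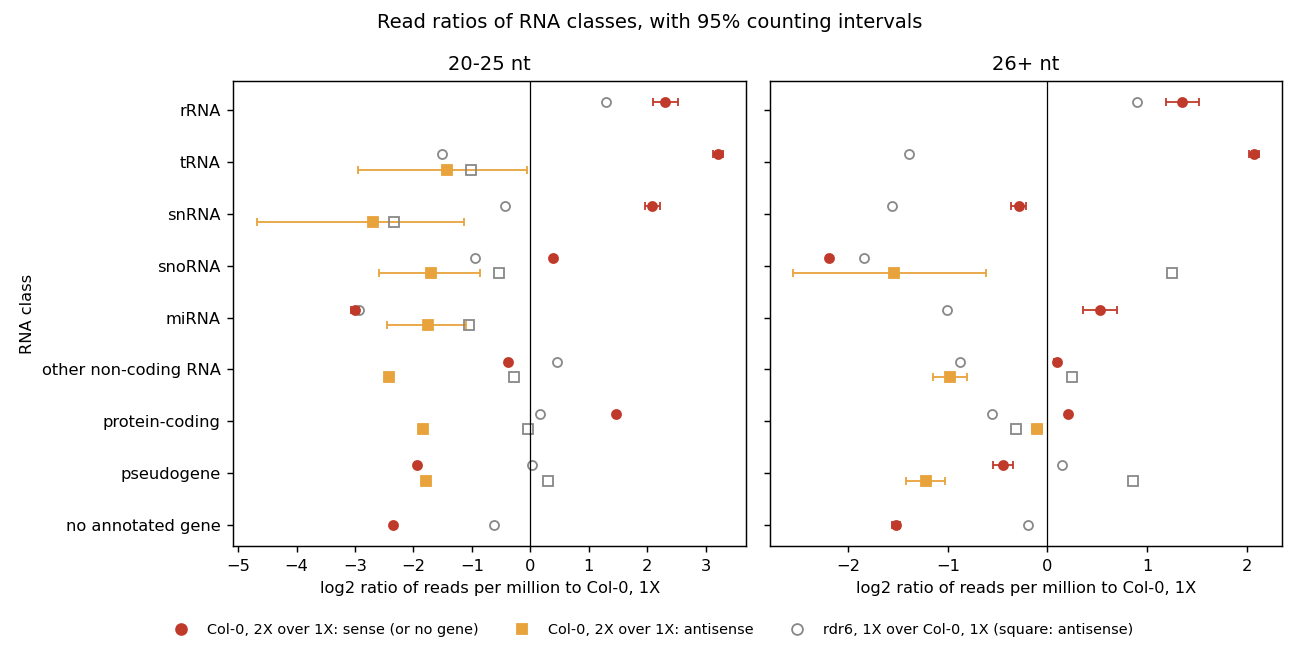
The log2 ratio of RPM, 2X over 1X, is plotted for each RNA class with its 95% counting interval, for 20–25 nt and for 26 nt or more (sense red circles, antisense orange squares), and open grey marks give rdr6 1X over Col-0 1X. tRNA lies above 0 at both lengths (ratios 9.23 and 4.22), miRNA far below 0 at 20–25 nt, and snoRNA far below 0 at 26 nt or more. Most tRNA reads of 2X lay on the gene AT1G01270.

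The profiles of read length show where in each class these differences lay. Reads of 24 nt outside annotated genes had 8368 RPM in 2X and 157722 RPM in 1X, a log2 ratio of −4.24, whereas those of 21 nt had 12707 RPM in 2X and 19454 RPM in 1X, a log2 ratio of −0.61. In pseudogenes the log2 ratios were −4.01 at 24 nt and −0.54 at 21 nt. The rdr6 1X library had 9636 RPM outside genes and 921 RPM in pseudogenes at 24 nt, nearer to 2X than to 1X. The snoRNA difference lay mainly at 38 nt, with 11546 RPM in 2X and 100761 RPM in 1X (log2 −3.13), while at 26–37 nt the values were 16675 RPM in 2X and 28690 RPM in 1X (log2 −0.78). Protein-coding sense reads were higher in 2X at 26–37 nt, with 164021 RPM in 2X and 83839 RPM in 1X, but not at 38 nt, with 109731 RPM in 2X and 152898 RPM in 1X. tRNA reads of 2X peaked at set lengths. They had 17669 RPM in 2X and 537 RPM in 1X at 18 nt, and 4716 RPM in 2X and 74.8 RPM in 1X at 26 nt.

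**Figure D2:**
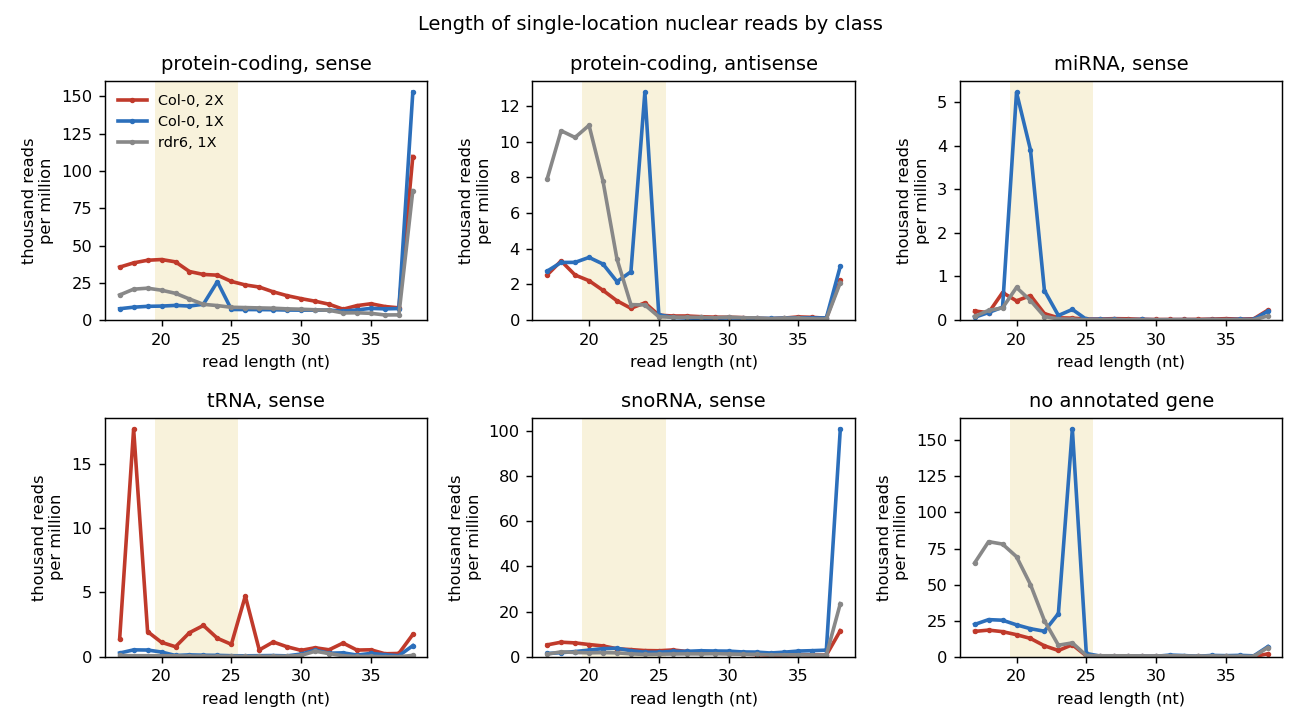
RPM, divided by 1000 on the axis, is plotted against read length in 6 panels for 2X, 1X and rdr6 1X, with 20–25 nt shaded. The panels are protein-coding sense, protein-coding antisense, miRNA, tRNA, snoRNA and no annotated gene. The 24-nt peak outside genes is tall in 1X (157722 RPM) and low in 2X (8368 RPM), and the 38-nt snoRNA peak likewise (11546 RPM in 2X, 100761 RPM in 1X).

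miRNA precursor genes were mostly lower in 2X at 20–25 nt: 34 of 41 genes were lower and 6 higher, with a median log2 ratio of −3.74 against 2.17 over all sense genes. Plant miRNAs are cut from the stem of a folded precursor by Dicer-like 1. Counted at their annotated 5′ ends (within 2 bases), 33 mature miRNAs had at least 20 reads, of which 26 were lower and 6 higher in 2X, with a median of −3.72. Together they had 1532 reads in 2X, 12071 in 1X and 1406 in rdr6 1X.

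miR158a-3p had the most reads, 288 in 2X and 6327 in 1X, and was 25.7-fold lower in 2X (22.8–29.0). miR161.1, which targets pentatricopeptide repeat (PPR) mRNAs, had 31 reads in 2X and 2294 in 1X and was 86.5-fold lower (60.8–128). The largest drop was that of miR391-5p, with 2 reads in 2X and 464 in 1X, 271-fold lower with a counting interval of 74.6 to 2245. In the miR156 family, which targets SPL transcription factors, miR156h had 2 reads in 2X and 444 in 1X, miR156d-5p had 1 in 2X and 66 in 1X, and miR157d had 0 in 2X and 53 in 1X. miR160a-3p, from the precursor of a regulator of auxin response factors, had 1 read in 2X and 151 in 1X. miR173-5p, which triggers tasiRNA formation from TAS1 and TAS2, had 44 reads in 2X and 392 in 1X. miR166a-3p, which targets HD-ZIP III transcription factors, had 5 reads in 2X and 80 in 1X. In rdr6 1X these miRNAs had 844 (miR158a-3p), 123 (miR161.1), 37 (miR391-5p), 50 (miR156h), 40 (miR156d-5p), 1 (miR157d), 16 (miR160a-3p), 15 (miR173-5p) and 8 (miR166a-3p) reads. rdr6 1X was thus low as well, and 26 of the 34 precursor genes lower in 2X (76.5%) had an rdr6 1X value nearer to 2X than to 1X, against 33.8% of all lower genes at 20–25 nt.

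The 6 mature miRNAs that were higher in 2X include miR159a, miR159b-3p and miR319a, which are similar in sequence. miR159a, a regulator of MYB transcription factors, had 326 reads in 2X, 24 in 1X and 0 in rdr6 1X, a log2 ratio of 3.54. miR159b-3p had 35 reads in 2X, 2 in 1X and 0 in rdr6 1X. miR319a, a regulator of TCP transcription factors, had 122 reads in 2X, 0 in 1X and 0 in rdr6 1X, which is a log2 ratio of at least 5.12 with 3 counts in place of 0. miR163, whose mature form is 24 nt and which targets methyltransferase mRNAs, had 397 reads in 2X, 10 in 1X and 7 in rdr6 1X, a log2 ratio of 5.09. miR4228-3p had 132 reads in 2X and 8 in 1X, and miR845a had 22 in 2X and 8 in 1X, a log2 ratio of 1.23 that was −1.07 when scaled by protein-coding genes. The only mature miRNA between the directions was miR396a-3p, with 22 reads in 2X and 19 in 1X.

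**Figure D3:**
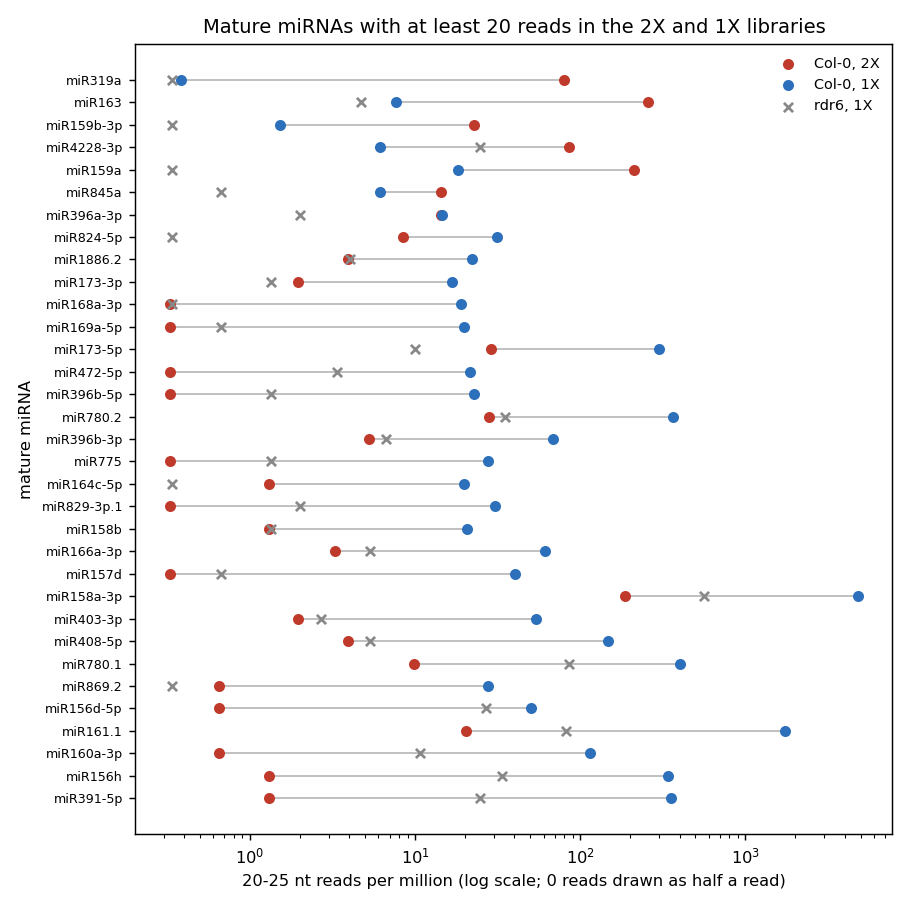
Each row is 1 of the 33 mature miRNAs with at least 20 reads, and points give its RPM of 20–25 nt in 2X, 1X and rdr6 1X on a log axis, 0 reads being drawn below the position of 1 read. In 26 rows 2X lies at least 2-fold below 1X and in 6 rows above it, and rdr6 1X often lies between them or beside 2X.

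miRNA reads of 2X also ended elsewhere. Of reads that start exactly at a mature miRNA's first base, 32.2% in 2X (Wilson interval 30.4–34.2%, 744 of 2308 reads) ended at the annotated last base, against 95.3% in 1X (94.9–95.7%, 9240 of 9693 reads). The share was 87.5% in rdr6 1X and 95.1% in the smRNA library. Shorter reads made up 64.3% in 2X and 2.02% in 1X, and those 1 to 4 bases shorter 52.3% in 2X and 2.02% in 1X. The 2X shares can include reads under 17 nt, which 1X lacks. For miR158a-3p, 25.8% of such reads in 2X (244 of 945) and 98.4% in 1X (6167 of 6266) had the annotated end, whereas for miR159a all 281 reads in 2X and all 23 in 1X had it. Since shortened reads can fall below 20 nt, mature miRNAs were also counted from 17 nt on, an alternative chosen after seeing the data. miR158a-3p then had 953 reads in 2X and 6402 in 1X, a log2 ratio of −2.97 in place of −4.68. The median over the 33 miRNAs became −3.55, with 26 lower and 6 higher as before, and their sum was 2852 reads in 2X and 12230 in 1X.

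**Figure D4:**
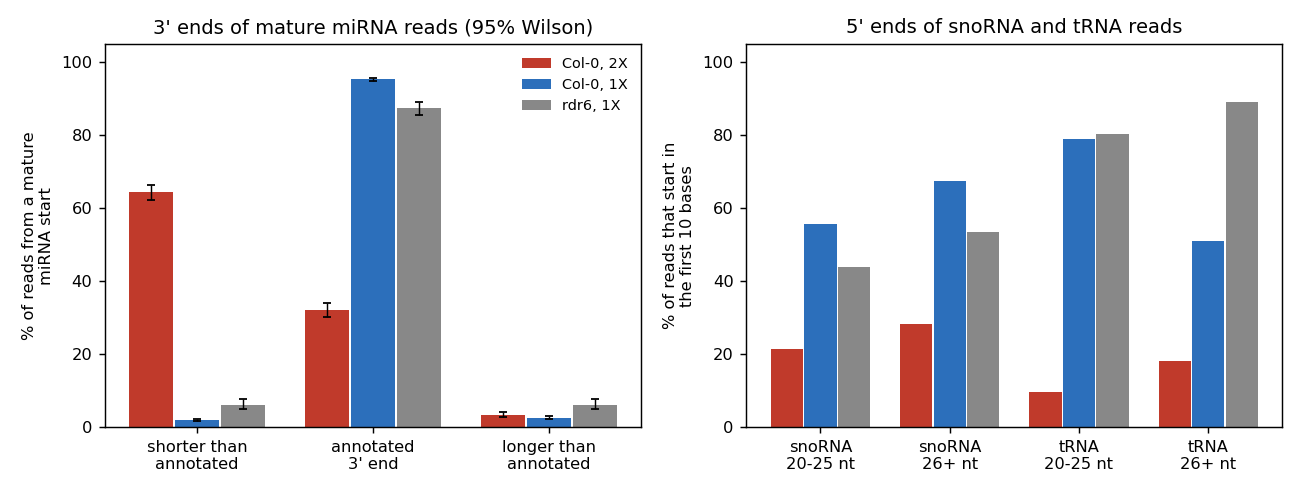
Left, the percentage of reads starting at a mature miRNA's first base whose 3′ end is shorter than, equal to or longer than the annotated one, with Wilson intervals (equal: 32.2% in 2X, 95.3% in 1X). Right, the percentage of snoRNA and tRNA reads that start within the first 10 bases of the gene (snoRNA of 26 nt or more: 28.3% in 2X, 67.4% in 1X).

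Reads of tasiRNA loci were lower in 2X throughout. TAS transcripts are cut after miRNA guidance, copied into dsRNA by RDR6 and diced into 21-nt siRNAs in register. Of 8 TAS genes, 6 passed the read minimum at 20–25 nt on each strand, and all 6 were lower in 2X on both strands. Summed sense reads were 286 in 2X, 2981 in 1X and 33 in rdr6 1X, and summed antisense reads were 145 in 2X, 2470 in 1X and 12 in rdr6 1X. The median log2 ratios were −3.57 in sense, against 2.17 over all sense genes, and −3.64 in antisense, against −2.22 over all antisense genes. The commonest siRNA of each of 4 locus strands is printed with bases 2 to 8 in capitals, because each of them held many of the locus's reads in 1X.
TAS3 sense: tTCTTGACcttgtaagacccc
TAS3 antisense: tGACTCGAacgaattagaggt
TAS1A sense: aTGATATTtgtagtaatggcg
TAS1C antisense: tTCTTTAGacgacttgaaaat

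The TAS3 sense siRNA lies at chr3:5862206-5862226 and had 0 reads in 2X and 148 in 1X. It is one of the tasiR-ARFs, which target auxin response factor mRNAs. The TAS3 antisense siRNA at chr3:5862310-5862330 had 12 reads in 2X and 518 in 1X. The TAS1A siRNA at chr2:11721923-11721943 had 4 reads in 2X and 623 in 1X, and the TAS1C antisense siRNA at chr2:16537712-16537732 had 0 reads in 2X and 413 in 1X. Over the whole loci, TAS1A had 36 sense reads in 2X and 1113 in 1X, 36.1-fold lower (25.9–51.9). TAS1C had 142 sense reads in 2X and 760 in 1X, 6.25-fold lower, but 25 antisense reads in 2X and 902 in 1X, 42.2-fold lower. TAS3 had 6 sense reads in 2X and 208 in 1X, and 82 antisense reads in 2X and 1226 in 1X. TAS2 had 83 sense reads in 2X and 721 in 1X, and TAS1B and TAS3b had 12 and 5 sense reads in 2X against 122 and 51 in 1X. The remaining members, TASIR-ARF (1 sense read in 2X, 6 in 1X) and AT3G25795 (1 in 2X, 0 in 1X), did not reach the minimum. Long sense reads were lower on TAS2 (24 in 2X, 250 in 1X), TAS1A (3 in 2X, 17 in 1X) and TAS1C (10 in 2X, 39 in 1X), and long antisense reads on TAS1C (8 in 2X, 79 in 1X) and TAS3 (9 in 2X, 22 in 1X), which were the only members tested at that length.

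snoRNAs guide the chemical modification of rRNA. Box C/D snoRNAs carry a C box, TGATGA, near their 5′ end, and box H/ACA snoRNAs fold into hairpins. For long reads, 140 of 221 snoRNA genes (63.3%, against 4.25% over all genes) were lower in 2X and 11 higher, with a median log2 ratio of −1.64 against 0.23 over all genes. For short reads, 98 of 197 (49.7%, against 78.5% over all genes) were higher and 17 lower, with a median of 0.98 against 2.17 over all genes, and this median was −1.33 when scaled by protein-coding genes. Of 193 snoRNA genes measured at both lengths, 182 had the higher ratio at 20–25 nt, and 46 were higher at 20–25 nt and lower at 26 nt or more. The commonest fragment of each of 3 lowered snoRNAs is printed because it makes up most of the difference, with the C box in capitals, followed by the commonest short fragment of AtsnoR81 and of AtsnoR94, which were higher in 2X.
snoR119: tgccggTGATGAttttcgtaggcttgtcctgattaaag
AT3G47347: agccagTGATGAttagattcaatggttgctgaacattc
snoR132: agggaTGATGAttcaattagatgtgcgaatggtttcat
AtsnoR81: tatggaacttcaagtttggc
AtsnoR94: tttaggctgtcaaagcagagac

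The snoR119 fragment (gene AT5G00760, chr5:146340-146377, minus strand) is the first 38 bases of the snoRNA and had 16 reads in 2X and 6898 in 1X. The AT3G47347 fragment (chr3:17445809-17445846, plus strand) had 11 reads in 2X and 11562 in 1X, and the snoR132 fragment (AT3G02445, chr3:3628182-3628219, minus strand) had 13 in 2X and 2034 in 1X. The short fragments of AtsnoR81 (chr1:20260365-20260384) and AtsnoR94 (chr3:11154304-11154325) had 99 and 154 reads in 2X and 0 reads each in 1X. For the genes as a whole at 26 nt or more, snoR119 had 117 reads in 2X, 8339 in 1X and 2056 in rdr6 1X, 83.3-fold lower in 2X (69.4–101). AT3G47347 had 249 reads in 2X, 13636 in 1X and 1537 in rdr6 1X, 64.0-fold lower (56.5–72.8), but at 20–25 nt it had 574 reads in 2X and 289 in 1X. snoR149 (AT2G08765), the snoRNA with the most reads, had 603 in 2X and 14122 in 1X, and AtsnoR12-1b (AT4G07625) had 72 in 2X and 3020 in 1X. snoR124 (AT5G09000) had 27 reads in 2X and 1117 in 1X.

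The reads of these genes that reached 38 nt, where no 3′ end was seen, were 54 in 2X and 8115 in 1X for snoR119, and 95 in 2X and 13094 in 1X for AT3G47347. Over all snoRNA genes, 28.3% of reads of 26 nt or more in 2X and 67.4% in 1X started within the first 10 bases, with 53.5% in rdr6 1X. The letters TGATGA, searched on the strand of the gene, occur in 143 of 287 snoRNA genes (49.8%). With long reads, 80 of the 114 tested genes that hold them were lower in 2X (median log2 −1.74), against 60 of the 107 tested genes without them (median −1.39). AtsnoR81 (AT1G07957) had 279 reads of 20–25 nt in 2X and 2 in 1X, 119-fold higher with an interval of 32.7 to 991, but 8 reads in 2X and 255 in 1X at 26 nt or more. AtsnoR94 (AT3G05715) had 1059 reads of 20–25 nt in 2X and 12 in 1X (75.5-fold, 43.0–147). AtsnoR43.6 (AT1G08347) was the snoRNA with the most 20–25 nt reads and was lower, with 679 reads in 2X and 2850 in 1X. Of the 140 snoRNA genes lower at 26 nt or more, 94 (67.1%) had an rdr6 1X value nearer to 2X than to 1X, about the share over all 393 lower genes (68.2%).

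tRNAs carry amino acids to the ribosome and fold into a cloverleaf of stems. With short reads, 33 of 42 tested tRNA genes (78.6%) were higher in 2X and 3 lower, close to the 78.5% higher over all sense genes, with a median log2 ratio of 2.72 against 2.17. When scaled by protein-coding genes, 16 of the 42 were higher and 12 lower, with a median of 0.41. Among long reads, 44 of 66 (66.7%) were higher and 9 lower, against 9.76% higher over all genes, with a median of 2.21 against 0.23. Many tRNA genes have identical copies, whose reads have several locations, and with reads divided over all locations the summed class ratio at 26 nt or more turned to a log2 value of −0.72. The median over the 66 genes was then 1.91, with 58 of them above 0, and over all 581 genes that pass the minimum with such reads it was 1.93. No tRNA gene that was higher in 2X (0 of 33 and 0 of 44) had an rdr6 1X value nearer to 2X, against 12.1% of all higher genes at either length. The tRNA genes below are printed whole, with the commonest fragment of 2X in capitals, because a single fragment made up much of each gain.
tRNA-Gln AT1G01270: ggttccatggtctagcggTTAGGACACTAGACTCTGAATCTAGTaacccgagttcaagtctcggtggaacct
tRNA-Pro AT3G05755: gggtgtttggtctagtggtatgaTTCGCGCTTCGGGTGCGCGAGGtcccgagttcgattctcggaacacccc
tRNA-Thr AT5G63145: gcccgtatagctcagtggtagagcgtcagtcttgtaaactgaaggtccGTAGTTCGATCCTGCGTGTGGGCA

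AT1G01270 (chr1:111890-111961, minus strand), a gene for tRNA-Gln, held most reads of the class in 2X. It had 8908 reads of 20–25 nt in 2X, 59 in 1X and 4 in rdr6 1X, 129-fold higher in 2X (100.1–170). As long reads it had 13315 reads in 2X, 982 in 1X and 17 in rdr6 1X, 11.6-fold higher. The fragment in capitals had 6042 reads in 2X and 4 in 1X. It ends at base 44 of the gene, as did 77.5% of the gene's 20–25 nt reads in 2X and 13.6% in 1X. The tRNA-Pro gene AT3G05755 (chr3:1707738-1707809, minus strand) had 638 reads of 20–25 nt in 2X, 1 in 1X and 0 in rdr6 1X, of which 607 in 2X ended at base 45. Its fragment in capitals had 446 reads in 2X and 0 in 1X. With 1 read in 1X, its ratio of 546 has an interval whose lower bound is 97.6. Another tRNA-Pro gene, AT1G70050, had 290 reads of 26 nt or more in 2X and 1 in 1X, a ratio of 248 with a lower bound of 44.2.

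Fragments of the 3′ part of tRNAs were also higher. The tRNA-Thr gene AT5G63145 (chr5:25330036-25330107, plus strand) had 1029 reads of 26 nt or more in 2X, 19 in 1X and 12 in rdr6 1X, 46.3-fold higher (29.5–77.3). Of its reads, 98.6% in 2X and 94.7% in 1X ended at the same base, 2 bases beyond the annotated 3′ end. The commonest fragment (chr5:25330084-25330109), of which the capitals show the part within the gene, had 698 reads in 2X and 0 in 1X. The tRNA-Tyr gene AT4G39195 had 1007 reads in 2X, 28 in 1X and 8 in rdr6 1X (30.8-fold, 21.2–46.6), and the tRNA-Arg gene AT2G45020 had 244 in 2X, 4 in 1X and 0 in rdr6 1X. A gene that went the other way was the tRNA-His gene AT4G02055, with 473 reads of 26 nt or more in 2X, 1444 in 1X and 1288 in rdr6 1X, 3.57-fold lower in 2X. By isotype at 26 nt or more, tRNA-Gln genes had 13820 reads in 2X and 1006 in 1X, tRNA-Pro genes 415 in 2X and 10 in 1X, and tRNA-Ser genes 305 in 2X and 339 in 1X. Summed over tested tRNA genes, the place of reads differed too. Reads of 20–25 nt that start in the first 10 bases of a tRNA gene made up 9.79% in 2X, 78.9% in 1X and 80.2% in rdr6 1X. The 2X share describes mostly AT1G01270, which held 8908 of the 12684 reads in 2X and 59 of the 990 in 1X. A share without this gene was not computed. The tRNA-Ala gene AT2G22580 (236 reads of 20–25 nt in 2X, 1 in 1X) changed direction with reads divided over locations, to a log2 ratio of −0.52.

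snRNAs, the RNA parts of the spliceosome, were few. Among short reads, 8 of 13 tested genes (61.5%, against 78.5% over all genes) were higher in 2X and 1 lower, with a median of 1.14 against 2.17, which was −1.17 when scaled by protein-coding genes. In long reads, 6 of 20 were higher and 6 lower, against 9.76% higher and 4.25% lower over all genes. U2.4 had 1451 reads of 20–25 nt in 2X, 84 in 1X and 62 in rdr6 1X, a log2 ratio of 3.89. Of the minor spliceosome, U4atac had 898 reads of 26 nt or more in 2X and 249 in 1X (log2 1.63), while U12 had 476 in 2X and 1315 in 1X (log2 −1.69). The 7SL RNA of the signal recognition particle lies antisense to its annotation, AT7SL-1, and passed no call, with 586 reads in 2X and 288 in 1X at 20–25 nt and 1031 in 2X and 1147 in 1X at 26 nt or more. AT7SL-1 is annotated as protein-coding, so these reads are part of the antisense sums of protein-coding genes below.

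Protein-coding genes gained short sense reads as a body. In short reads, 4653 of 5225 tested genes were higher in 2X and 328 lower, with a median log2 ratio of 2.31. For long reads, 819 of 8824 were higher and 204 lower, with a median of 0.25. Of 4850 genes measured at both lengths, 4771 had the higher ratio at 20–25 nt. The gene with the most reads, RR3, a response regulator of cytokinin signalling, had 2480 reads of 20–25 nt in 2X and 694 in 1X (log2 1.61), and 3845 reads in 2X and 4405 in 1X at 26 nt or more (log2 −0.42). Under scaling by the protein-coding median, its value at 20–25 nt was −0.70.

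**Figure D5:**
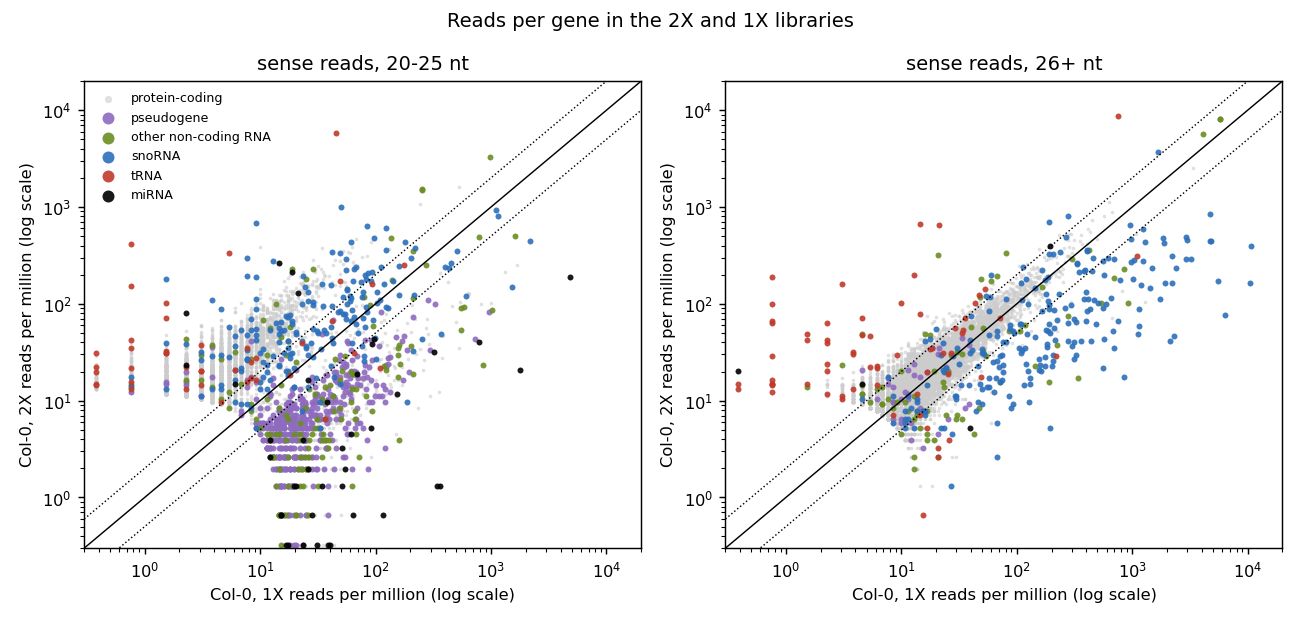
Each point is a gene with at least 20 sense reads in both libraries together, with its RPM in 2X on the vertical and in 1X on the horizontal log axis, for both length classes, and dotted lines mark a 2-fold difference. At 20–25 nt most protein-coding genes lie above the upper line (4653 of 5225) and miRNA genes below the lower one (34 of 41), while at 26 nt or more snoRNA genes lie below it (140 of 221).

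Gene lists of mRNAs taken by words of the annotation lay near the shares of their class, which were 89.1% higher and 6.28% lower of protein-coding genes at 20–25 nt (78.5% and 14.9% of all genes) and 9.28% higher and 2.31% lower at 26 nt or more (9.76% and 4.25% of all genes). Of cytosolic ribosomal protein genes, 167 of 175 tested were higher at 20–25 nt and 0 lower (median log2 2.38), and 26 of 221 were higher and 4 lower at 26 nt or more (median 0.28). Of nuclear photosynthesis genes, 43 of 44 were higher and 1 lower at 20–25 nt (median 2.25), and 5 of 45 were higher and 0 lower at 26 nt or more (median 0.36). All 26 tested heat shock protein genes were higher at 20–25 nt (median 2.44), among them HSC70-1 with 662 reads in 2X and 119 in 1X (log2 2.25, and −0.057 when scaled by protein-coding genes). With long reads, 4 of 30 were higher and 0 lower (median 0.39). Of 8 histone genes 6 were higher and 0 lower at 20–25 nt, both tested eEF1A translation elongation factor genes were higher, and of 7 floral regulator genes 6 were higher and 0 lower. Among long reads, 1 of 12 histone genes was higher and 1 lower, and no floral regulator or eEF1A gene was called. PPR genes, which encode RNA-binding proteins of organelles, were higher in 22 of 25 cases and lower in 3 at 20–25 nt (median 2.29). Among those lower were AT1G12615 (21 reads in 2X, 130 in 1X) and AT1G28000 (19 in 2X, 77 in 1X). A list of genes with transposon words in their product or note was not limited to protein-coding genes, so the protein-coding shares are no base for it. Of its genes, 12 of 19 tested were lower and 6 higher at 20–25 nt (median −1.67), against 14.9% lower and 78.5% higher of all genes. Pseudogenes as a class were 87.5% lower at this length. In long reads, 5 of 64 PPR genes were higher and 1 lower, and 1 of 10 transposon-word genes was higher and 0 lower. The ribosomal and heat shock lists have medians above 2.31, the protein-coding median at 20–25 nt, and the photosynthesis, histone, PPR, eEF1A and floral lists have medians below it. With that median set to 0, the floral genes AP1, PI, SEP1 and SEP2 turned to log2 ratios of −0.10, −0.27, −0.48 and −0.24.

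The 328 protein-coding genes that were lower at 20–25 nt had many reads in the smRNA library. Their median was 757.5 smRNA reads of 20–25 nt, and 98.2% of them had at least 100, against a median of 1 and 0.731% for the 4653 genes that were higher. In 1X, 58.4% of the 20–25 nt reads of the lower genes were 24 nt long, with 18.8% in 2X. For the higher genes the share was 15.1% in 2X and 18.0% in 1X. The 443 of 506 pseudogenes that were lower likewise had a median of 585 smRNA reads. Of the genes with a place in the text only because their values had been seen, AT3G21170, an F-box related gene, had 54 sense reads in 2X and 692 in 1X, and AT3G23650, a kinase-like gene, had 19 in 2X and 469 in 1X. The largest gain among well-covered mRNAs, also chosen after its values were seen, was that of IMB1, a bromodomain protein gene, with 588 reads in 2X, 13 in 1X and 3 in rdr6 1X. Of these, 569 in 2X and 9 in 1X came from 1 location in the gene. LHCB5, a light-harvesting protein of photosystem II, had 582 reads in 2X, 45 in 1X and 54 in rdr6 1X.

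With long reads, the mRNAs with the largest drops, chosen in the same way, were ROC2, a cyclophilin, with 160 reads in 2X, 1706 in 1X and 858 in rdr6 1X, and AT5G01350, with 109 in 2X and 872 in 1X. AT5G01350 (chr5:145387-147356) holds the gene of snoR119. An annotated snoRNA lies inside 5 of the 204 lower genes (2.45%) and inside 31 of the 8824 tested ones (0.351%). Among those higher were the ribosomal protein genes P40 (248 reads in 2X, 82 in 1X) and RPS15 (177 in 2X, 62 in 1X), the photosystem II gene PSBR (789 in 2X, 305 in 1X) and the metallothionein gene MT2B (374 in 2X, 138 in 1X). Of the 204 lower genes, 146 had an rdr6 1X value nearer to 2X than to 1X, and of the 819 higher genes 103 had one.

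The parts of protein-coding genes shifted towards coding sequence. For short reads, coding sequence took 81.8% of sense reads in 2X and 75.0% in 1X, a difference of 6.80 percentage points (6.50–7.11), and introns took 3.52% in 2X and 10.3% in 1X. The RPM of coding sequence was 3.01-fold higher in 2X. The RPM of introns had a ratio of 0.945, which joins opposite differences, with a ratio of 0.260 at 24 nt (972 RPM in 2X, 3739 RPM in 1X) and 1.64 for the other lengths of 20–25 nt (6039 RPM in 2X, 3681 RPM in 1X). For long reads, coding sequence took 85.7% in 2X and 81.2% in 1X, 3′ UTRs 7.72% in 2X and 10.5% in 1X, and introns 2.08% in 2X and 2.96% in 1X.

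Short antisense reads of protein-coding genes were 3.58-fold lower in 2X, with 6862 RPM in 2X and 24583 RPM in 1X. Of short reads, they made up 3.33% of the reads of these genes in 2X (3.27–3.40%), 25.4% in 1X (25.2–25.6%) and 22.9% in rdr6 1X. The gap was present at 24 nt, with 3.10% in 2X, 33.1% in 1X and 8.05% in rdr6 1X, and also at 21 nt, with 4.09% in 2X, 24.2% in 1X and 30.3% in rdr6 1X. For long reads the shares were 1.47% in 2X (1.43–1.50%) and 1.82% in 1X (1.77–1.87%), while long antisense reads numbered 6240 in 2X and 5746 in 1X, an RPM ratio of 0.929 that was 1.35 without reads of 38 nt. In pseudogenes both strands were lower in 2X, and the antisense share at 20–25 nt was 46.1% in 2X and 43.6% in 1X.

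By gene, 269 of 324 protein-coding genes and 309 of 371 pseudogenes with antisense reads of 20–25 nt were lower in 2X (83.0% and 83.3%, against 84.1% over all genes). PUM25, a gene of the pumilio family of RNA-binding proteins, had 33 antisense reads in 2X, 527 in 1X and 531 in rdr6 1X. AT2G02440 had 14 antisense reads in 2X, 211 in 1X and 53 in rdr6 1X. Exceptions were AT3G05955, a non-coding RNA gene with 437 antisense reads in 2X and 15 in 1X, and BXL3, a beta-xylosidase gene with 330 in 2X and 68 in 1X. BXL3 was also higher at 26 nt or more, with 1540 antisense reads in 2X, 585 in 1X and 192 in rdr6 1X, a 2.25-fold difference. AT4G10800 was higher at 20–25 nt, with 176 antisense reads in 2X and 53 in 1X, and lower at 26 nt or more, with 204 in 2X and 351 in 1X. Scaled by the protein-coding median, the antisense log2 ratios at 20–25 nt were −0.25 for BXL3 and −0.80 for AT4G10800.

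Among other non-coding RNA genes, 94 of 141 were lower and 27 higher in sense at 20–25 nt (median log2 −2.10), the TAS genes among them, and 26 of 75 were lower and 16 higher at 26 nt or more (median −0.27). The unnamed gene AT3G08370 had 766 reads of 20–25 nt in 2X, 2124 in 1X and 8563 in rdr6 1X. AT1G05163 had 2361 reads of 20–25 nt in 2X and 334 in 1X (log2 2.60), and 12435 in 2X and 7470 in 1X at 26 nt or more (log2 0.51), where it shares all of its reads with the overlapping gene AT1G15405. Few reads of 26 nt or more lay on miRNA precursors. MIR4228 had 612 in 2X and 256 in 1X, MIR165a had 8 in 2X and 52 in 1X, and MIR839 had 31 in 2X and 0 in 1X, at least 8.84-fold higher.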

How the data were processed

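Col-0 dsRNA-seq libraries after 2 rounds and after 1 round of rRNA depletion were compared, 1 library each, with rdr6 dsRNA 1X and Col-0 smRNA as side values. The authors collapsed reads to non-redundant (NR) sequences, removed the 3′ adapter from reads in which it was detected, kept the others uncut, and aligned sequences to TAIR9 with at most a small share of mismatches, all locations being kept. The aligner was cross_match, with a version not given in the sources used here. The deposited values are counts, the number of reads per NR sequence, without normalization. Strand is kept.

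Reads with 1 location on chromosomes 1 to 5 were assigned by their middle base to genes of the RefSeq annotation of TAIR10.1, whose nuclear coordinates fit the deposited ones as judged from mature miRNA starts (66.7% of nearby reads in 2X and 76.4% in 1X begin at the annotated base). Sense came before antisense, and where genes overlap, structural RNAs (rRNA first, then tRNA, snRNA and snoRNA) were given the read before miRNA and other non-coding genes, and these before protein-coding genes and pseudogenes. Counts were scaled to 1000000 single-location nuclear reads of all lengths. Ratio intervals are exact 95% Clopper–Pearson intervals and share intervals are Wilson intervals. These, and the 3 counts used for a library at 0, cover counting error only.

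Named genes are the 5 gene strands of largest log2 ratio in each direction, length class and strand among called ones with at least 200 reads in both libraries together, the 3 with the most reads in each class, and members of the lists. Protein-coding rows beyond these were added after their values were seen. The members and lists were chosen with earlier results of these data known. Alternatives were other scalings, read minimums of 1 and 100, a fold of 4, NR sequences counted once, reads of all locations divided by their number, intervals that leave out 1, genes without their commonest sequence, every overlapping gene counted, and other length classes. Reads of the organelle genomes were not used here. The ratios, the calls and the exact ratio interval were tested on simulated counts with known answers. Read assignment, gene parts, read ends and the other steps were not tested in this way. Scripts ran in Python 3.11.15 with pandas 2.3.3, scipy 1.17.1, matplotlib 3.10.9 and numpy 2.4.6.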

Additional observations from a re-analysis of the deposited data

How the results depend on the processing

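No paired analysis was possible because each group has 1 library. The choice of 20–25 nt without 24 nt and of 17–25 nt was made after seeing the data. The cause of each shift was not tested.

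The count of genes higher in sense at 20–25 nt (4838) was 694 under protein-coding median scaling, 11111 with no read minimum, 501 with at least 100 reads and 7283 at 17–25 nt. The count lower (920) was 1557 under median scaling, 2408 with no minimum, 206 with 100 reads, 591 at 4-fold, 1912 with all locations and 398 without 24 nt. The antisense count lower (662) was 1910 with no minimum, 148 with 100 reads, 432 at 4-fold, 1359 with all locations and 250 without 24 nt. At 26 nt or more, the count higher (902) was 547 with scaling by mapped reads, 1674 by the same length class, 491 by the median, 2599 with no minimum, 93 with 100 reads, 80 at 4-fold, 363 with NR sequences and 2691 without 38 nt. The count lower (393) was 595 by mapped reads, 654 by the median, 1735 with no minimum, 150 with 100 reads, 141 at 4-fold, 603 with NR sequences, 642 with all locations and 128 without 38 nt.

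Class log2 ratios at 20–25 nt are given for NR sequences, all locations, 21 nt, 24 nt and 17–25 nt in this order. They were 1.29, 0.58, 2.95, 3.70 and 3.70 for tRNA (reported 3.21), −1.71, −3.27, −2.79, −2.44 and −2.23 for miRNA (−3.00), 1.37, 1.13, 1.99, 0.23 and 1.68 for protein-coding genes (1.46), −2.16, −1.61, −0.54, −4.01 and −1.39 for pseudogenes (−1.94), −2.55, −1.02, −0.61, −4.24 and −1.66 outside genes (−2.35), and 1.16, 1.96, 3.33, 0.82 and 1.74 for rRNA (2.31). Without 24 nt they were 1.86 for protein-coding genes, −0.98 for pseudogenes, −1.17 outside genes and 2.57 for rRNA. The antisense share of protein-coding reads was, in the first order, 2.61, 5.84, 4.09, 3.10 and 4.64% in 2X (3.33%) and 20.7, 31.2, 24.2, 33.1 and 25.7% in 1X (25.4%), with 20.3% in 1X without 24 nt. The coding sequence difference was 5.59, 9.53, 4.85, 10.4 and 6.09 points (6.80), and 4.77 without 24 nt.

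At 26 nt or more, for NR sequences, all locations and without 38 nt, log2 ratios were 0.98, −0.72 and 2.34 for tRNA (2.08), −1.08, −2.16 and −0.78 for snoRNA (−2.20), −0.070, 0.056 and 0.97 for protein-coding genes (0.21), and 0.98, −1.14 and 1.64 for rRNA (1.35), so tRNA and rRNA turned with all locations. Antisense shares were 1.02, 3.05 and 1.11% in 2X (1.47%) and 1.36, 4.14 and 1.60% in 1X (1.82%). The coding sequence difference was 3.06 points with NR sequences and 5.70 without 38 nt (4.42).

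Under protein-coding median scaling, short-read values of these genes turned, as far as they are given here: BXL3 antisense (−0.25), AT4G10800 antisense (−0.80), U2.5 (−0.22), AT3G06365 (−0.57), RR3 (−0.70), AT1G07920 (−0.53), AP1 (−0.10), PI (−0.27), SEP1 (−0.48), SEP2 (−0.24), RBCS1A (−0.83), CAB1 (−0.87), HSC70-1 (−0.057) and miR845a (−1.07). AT2G22580 turned with all locations (−0.52). Of the remaining comparisons of single results with an alternative, 535 stayed within their limits and 352 moved. At this depth, genes under 20 reads were not read, and with 1 library a side nothing separates depletion from library.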
